A study of Mus musculus with 38 samples.

Results

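This report describes RNA sequencing of sorted heart fibroblasts in 4 EMPA–Pre-AMI libraries and 4 Control-AMI libraries, 8 of the 38 libraries of the series, chosen by their labelled cell population and group. The comparison asks whether empagliflozin (EMPA) given before a heart attack altered gene expression in fibroblasts, and how small a change the data could still have missed. The mice were C57BL/6 males 8 to 12 weeks old. In both groups the left anterior descending artery was tied for 30 min of ischemia and released for 2 h of reperfusion, so that the hearts had an acute myocardial infarction (AMI). EMPA–Pre-AMI mice had received EMPA at 10 mg/kg/d by mouth for 6 weeks, and Control-AMI mice had received the vehicle, 5% DMSO in saline, over the same time. Another 4 fibroblast libraries came from Sham mice, which had the vehicle and surgery with no ligation. Each library pooled the cells of 2 hearts, so that a group of 4 libraries stands for 8 hearts. Fibroblasts were sorted as cells without CD45 and CD31 and with CD90, a gate that pericytes and other stromal cells can also pass. The p-values below measure the spread between such pools.

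Cardiac fibroblasts make and maintain the collagenous matrix of the heart. Within hours of ischemia they also act as sentinel cells, which sense injury through cytokine receptors and release chemokines, interleukin-6 and acute phase proteins, long before they turn into matrix-producing myofibroblasts. EMPA inhibits the sodium-glucose cotransporter SGLT2, encoded by Slc5a2 and known from the proximal tubule of the kidney. In these 12 fibroblast libraries, Slc5a2 had at most 1 count per library and 2 counts in all, and Slc5a1, which encodes SGLT1, had 0 counts, which allows up to 3 counts in any library.

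Depth differed between the groups. Control-AMI libraries held 2159207 to 2812375 counts and EMPA–Pre-AMI libraries 1946056 to 2119839, ranges that did not overlap (exact permutation test, two-sided, p = 0.0286, the smallest p that 70 splits of 4 against 4 allow, adjusted p = 0.314 over 11 library measures). In each library 3 counts stood for 1.06 to 1.54 CPM, the count scaled to library size. Mitochondrially encoded genes took 3.49% to 6.28% of the counts in Control-AMI and 3.47% to 6.72% in EMPA–Pre-AMI. The 14 fibroblast markers summed to 36314 to 39950 CPM in Control-AMI and 34769 to 44924 CPM in EMPA–Pre-AMI. Of 10 endothelial markers, 9 could be tested, and their sum was 722, 800, 822 and 235 CPM in Control-AMI replicates 1 to 4 and 241, 861, 817 and 179 CPM in EMPA–Pre-AMI. Sums of myeloid markers were 20.8 to 34.5 CPM in Control-AMI and 22.1 to 48.5 CPM in EMPA–Pre-AMI, against 721 CPM in Sham replicate 2. Mural markers, of pericytes and smooth muscle cells, summed to 6076 CPM in Control-AMI replicate 4 and to 932 to 3166 CPM in the other 7 AMI libraries. Cardiomyocyte markers summed to 115 to 753 CPM in the 8 AMI libraries, Schwann and neural markers to 55.3 to 163 CPM, epicardial and mesothelial markers to 34.5 to 185 CPM, red cell markers to 75.4 to 743 CPM and lymphoid markers to at most 4.53 CPM. The T-cell genes Cd3e, Cd3g and Trbc2 had 0 counts in all 12 libraries. None of these sums differed between EMPA–Pre-AMI and Control-AMI after adjustment (exact permutation tests, adjusted p from 0.786 to 1.0).

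The fourth replicates of both AMI groups stood apart from the other AMI libraries, together and in the same direction. Their sample-sheet numbers in the labels, 8 for Control-AMI and 6 for EMPA–Pre-AMI, were also far from those of the other 6, which ran from 27 to 67, and what these numbers stand for is not stated. Sham replicates 2, 3 and 4 had the numbers 1, 2 and 4, and Sham replicate 1 had 56. On the second principal component of the well-measured genes, with 25.2% of the variance, the fourth AMI replicates lay at 37 and 35.8, and the other 6 AMI libraries lay between −9.77 and 3.65. Sham replicates 1 to 4 lay at −27.9, −5.62, −12.5 and −3.01. Genes with the largest positive weights on this component included Ptx3, Mt2, Il6 and Ccl2. The most negative weights were those of Morf4l1-ps1, Tpt1-ps3 and Gm49388, and the endothelial genes Flt1, Kdr and Tie1 also had large negative weights. As there is 1 such library in each group, the values without both are given below for the named genes whose interval then came to hold or to leave out 0, or whose estimate moved most. Intervals of Mt1, Mt2, Cdkn1a, Pld1, Cdon and Zbtb16 lay within 2-fold with all libraries and passed it without both.

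**Figure D1:**
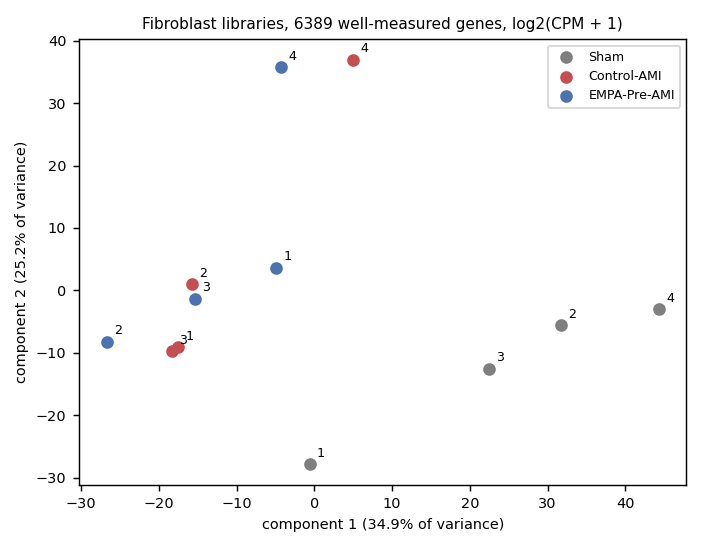
First and second principal components of the 12 fibroblast libraries, from log2(CPM + 1) of 6389 well-measured genes, with the replicate number beside each point. Replicate 4 of Control-AMI and of EMPA–Pre-AMI sit at 37 and 35.8 on the second component, above the other 10 libraries, and the points of these AMI groups are otherwise mixed.

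Of 10691 genes tested, 0 differed between EMPA–Pre-AMI and Control-AMI at an FDR under 0.05 (0.0% of genes). The smallest FDR was 0.9998, and DESeq2 and limma-voom gave 0 genes as well. An unadjusted p under 0.05 was found for 170 genes, 1.59% of those tested, with edgeR's quasi-likelihood test, 175 with DESeq2 and 155 with limma-voom. This number turned on single libraries, with 393 genes without Control-AMI replicate 4 and 112 without Control-AMI replicate 1, and it was 285 without both libraries that stood apart. With a term for the range of sample-sheet numbers it was 387, and 0 genes had an FDR under 0.05 in that fit too. The values of the groups did not overlap for 190 genes, 1.78% of those tested.

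Among genes without overlap, those of smallest p were mostly rare transcripts. Pld1, which encodes phospholipase D1 (chromosome 3 of GRCm39, 27992788 to 28188692), was the most abundant of them. Its level was 52.1, 66.1, 56.2 and 78.6 CPM in Control-AMI and 106.4, 81.6, 92.8 and 104 CPM in EMPA–Pre-AMI. All EMPA–Pre-AMI values of Pld1 thus lay above all Control-AMI values, with a log2 fold change of 0.60 (95% interval 0.22 to 0.98, unadjusted p = 0.00390 from edgeR). Frmd4b, Obi1, Ints12 and the predicted gene Gm14584 were the other genes higher with EMPA, at log2 fold changes of 0.72, 0.90, 1.65 and 3.32. Gm14584 was at 0 in 3 of the 4 Control-AMI libraries, and Ints12 was at 1.53 to 3.38 CPM in Control-AMI. Both passed the filter on low counts only with the EMPA–Pre-AMI libraries counted, so their rise is not independent of that filter. On the lower side stood Rcor2, encoding a partner of a histone demethylase complex, at 4.98, 1.88, 3.39 and 3.70 CPM in Control-AMI and 0, 0.526, 0 and 0 CPM in EMPA–Pre-AMI. The Control-AMI values of Rcor2 lay above the 1.06 to 1.54 CPM that 3 counts stand for, and the EMPA–Pre-AMI values lay below. Mypop, Mageh1, Nol3 and Usp13 had log2 fold changes of −0.97, −0.70, −0.86 and −1.10, and no Control-AMI mean of these 4 was above 42.6 CPM. Without both libraries that stood apart the interval of Usp13 was −1.54 to 0.20. None of these 10 genes had an FDR under 0.05 in any of the fits tried.

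With no gene called, the intervals say what the data can tell. For each gene the 95% interval of the log2 fold change was found, and the bound farther from 0 is the largest change that the interval still holds. A gene is called bounded here when both ends lie within 2-fold, or within 1.5-fold, of no change. Each interval is built to cover its own gene at 95% and the intervals are not joint, so some bounded genes can lie outside theirs. Intervals that left out 0 were 1.59% of all tested, fewer than a test at 0.05 gives on average when no gene differs. Whether the intervals of these libraries are wider than their stated level was not tested. Genes with a mean of at least 20 CPM over the 8 libraries were taken as well measured. There were 6389 of them, and 5769 (90.3%) were bounded within 2-fold and 2444 (38.3%) within 1.5-fold. The median of the farther bound was 1.56-fold. Among 4302 less abundant genes, 1418 (33%) were bounded within 2-fold.

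The bound tightened with abundance and then levelled off. From 5 to 20 CPM the median farther bound was 2.13-fold, with a median SD between libraries of 0.48 on the log2 scale. Between 20 and 50 CPM it was 1.67-fold, between 50 and 200 CPM 1.5-fold and above 200 CPM 1.44-fold, and the median SD there was still 0.27. Of 977 genes above 200 CPM, 95.4% were bounded within 2-fold and 64.2% within 1.5-fold.

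**Figure D2:**
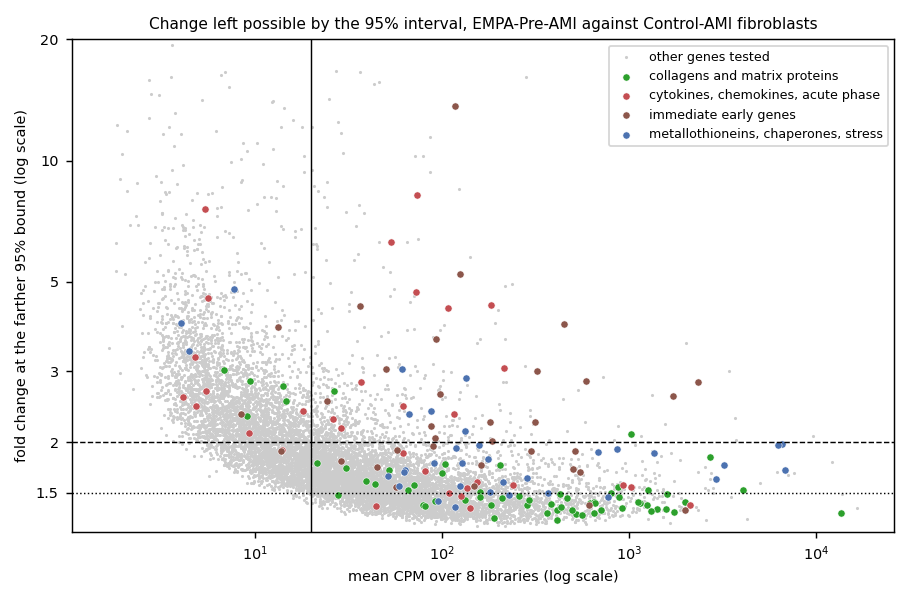
Fold change at the farther end of each gene's 95% interval, EMPA–Pre-AMI against Control-AMI, against mean CPM over the 8 libraries, both on log scales; 19 genes above 20-fold lie off the plot. The dashed and dotted lines mark 2-fold and 1.5-fold and the vertical line 20 CPM. Collagens and matrix proteins lie low at their abundance, while many cytokine and immediate early genes lie above 2-fold at more than 20 CPM.

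Genes were described in 12 lists by role, most of them of injury, matrix and inflammation. Sodium and glucose carriers and the respiratory chain with ATP synthase were also among the 12. The table held 406 of their genes, of which 379 were tested, 27 were too low to test and 326 were well measured. Of these 326, 269 (82.5%) were bounded within 2-fold and 129 within 1.5-fold, and 57 were not bounded within 2-fold. The respiratory list, with 72 of 73 bounded within 2-fold, and the carriers, with 5 of 6, are part of these totals and raise the share. None of the 379 had an FDR under 0.05, and 4 (1.06%) had an unadjusted p under 0.05, against 1.59% of all genes tested. These were Adamts15 and Lcn2, higher with EMPA, and Plaur and Srxn1, lower.

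**Figure D3:**
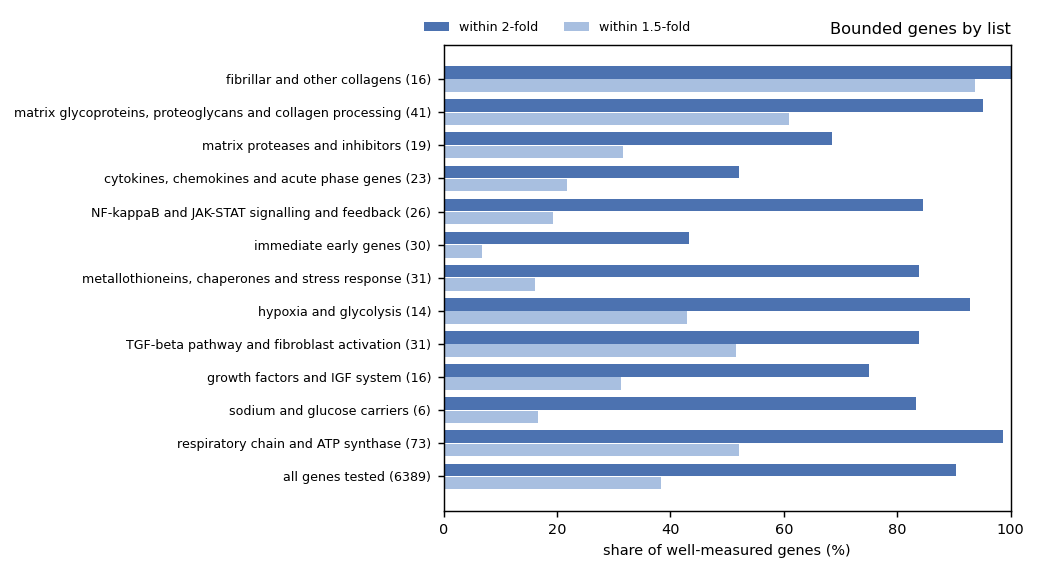
Share of the well-measured genes of each list whose 95% interval for EMPA–Pre-AMI against Control-AMI lies within 2-fold (dark bars) or 1.5-fold (light bars); the number of well-measured genes stands in parentheses. All 16 collagens were bounded within 2-fold, and 13 of 30 immediate early genes were.

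Collagens were the most tightly bounded list. All 17 were tested and 16 were well measured, of which 16 were bounded within 2-fold and 15 within 1.5-fold. Their median log2 fold change was −0.07, with a range of −0.15 to 0.18, and their farther bounds ran from 1.33- to 1.60-fold. Col1a2, a chain of type I collagen (chromosome 6, 4504814 to 4541555), was at 2233, 1889, 1958 and 1883 CPM in Control-AMI and 2572, 1718, 2084 and 1727 CPM in EMPA–Pre-AMI. The groups overlapped, and the log2 fold change was 0.02 (−0.46 to 0.51). Col1a1 and Col3a1 had log2 fold changes of −0.10 (−0.45 to 0.25) and 0.00 (−0.48 to 0.47). Col4a1 and Col4a2, the basement membrane chains that share a promoter region, were higher in Control-AMI than in Sham by 0.80 (FDR = 0.0144) and by 0.79 (FDR = 0.00469) on the log2 scale. With EMPA their log2 fold changes against Control-AMI were −0.08 (−0.45 to 0.28) and −0.14 (−0.44 to 0.17). Col18a1 had the widest interval of the well-measured collagens, −0.33 to 0.68 around 0.18.

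Matrix glycoproteins, proteoglycans and collagen-processing enzymes came next. Of 41 well-measured members, 39 were bounded within 2-fold and 25 within 1.5-fold, and their median log2 fold change was −0.04. Decorin (Dcn, chromosome 10, 97315275 to 97358155), a collagen-binding proteoglycan and the most abundant member, was at 13455, 14065, 12260 and 15440 CPM in Control-AMI and 13123, 10736, 13458 and 16899 CPM in EMPA–Pre-AMI. It overlapped fully, with a log2 fold change of −0.03 (−0.42 to 0.36). Lumican (Lum) had the tightest bound, 1.28-fold, around a log2 fold change of 0.02. Sparc, which encodes osteonectin, was at 4411 ± 597 CPM in Control-AMI (mean ± SD, n = 4) and 3724 ± 496 CPM in EMPA–Pre-AMI, with an interval of −0.61 to 0.12. Postn and Fn1, periostin and fibronectin, had log2 fold changes of 0.30 (−0.13 to 0.74) and −0.08 (−0.52 to 0.36).

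Versican (Vcan, chromosome 13, 89803431 to 89890814) is a large proteoglycan of provisional matrix. Among the 45 tested members of the list only Vcan had no overlap, against 1.78% of all genes tested. It was at 904, 813, 911 and 826 CPM in Control-AMI, at 957, 946, 943 and 1021 CPM in EMPA–Pre-AMI and at 354 to 447 CPM in Sham. Its level was higher in Control-AMI than in Sham by a log2 fold change of 1.07 (FDR = 0.000357), and the further log2 fold change with EMPA was 0.16 (−0.13 to 0.46). The members not bounded within 2-fold were Has1, a hyaluronan synthase, and the laminin chain Lamc1, with farther bounds of 2.67- and 2.09-fold. Mfap4, at 17.3 ± 6.32 and 11 ± 4.17 CPM, fell below the level taken as well measured and had an interval of −1.46 to 0.15, which was −1.88 to −0.19 without both libraries that stood apart.

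Proteases of the matrix and their inhibitors were less tightly bounded, with 13 of 19 within 2-fold and 6 within 1.5-fold. Mmp2, gelatinase A (chromosome 8, 93553902 to 93580049), was at 839, 736, 842 and 610 CPM in Control-AMI and 817, 738, 715 and 679 CPM in EMPA–Pre-AMI. Here too the groups overlapped, and the log2 fold change of −0.04 had an interval of −0.36 to 0.28, a farther bound of 1.28-fold. The inhibitors Timp2 and Timp3 had log2 fold changes of −0.12 (−0.66 to 0.42) and 0.12 (−0.23 to 0.46). Timp1, the inhibitor induced by inflammation, was at 22.6, 69.8, 27.6 and 53.1 CPM in Control-AMI and 27, 49.5, 34.3 and 125 CPM in EMPA–Pre-AMI. Its highest value was in EMPA–Pre-AMI replicate 4, and its interval ran from −0.58 to 1.47 around 0.44. Without both libraries that stood apart the log2 fold change of Timp1 was −0.12. Adamts15, which cleaves versican and aggrecan, was at 31.4, 33.8, 29.1 and 23.9 CPM in Control-AMI and 57.6, 31.1, 42.7 and 53.5 CPM in EMPA–Pre-AMI, with an interval of 0.19 to 1.10 (unadjusted p = 0.00809 from edgeR). Its groups overlapped through the 31.1 CPM of EMPA–Pre-AMI replicate 2, and without both libraries that stood apart the interval of Adamts15, −0.03 to 0.98, held 0. Plaur, the urokinase receptor, was at 8.72 to 14.6 CPM in Control-AMI and 2.43 to 8.95 CPM in EMPA–Pre-AMI. Plat, tissue plasminogen activator, had the widest interval among well-measured members, −1.34 to 1.54, and its log2 fold change moved from 0.10 to 0.82 (−0.77 to 2.41) without both libraries that stood apart.

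Cytokines, chemokines and acute phase genes were poorly bounded. Of 40 genes 32 were tested and 23 well measured, and of those 12 were bounded within 2-fold and 5 within 1.5-fold, against 90.3% and 38.3% of all well-measured genes. The median log2 fold change was 0.05 and the median SD between libraries was 0.66 on the log2 scale, compared with 0.31 over all well-measured genes. The abundant complement genes were well bounded. Complement C3 was at 2153 ± 616 CPM in Control-AMI and 2097 ± 353 CPM in EMPA–Pre-AMI, with a log2 fold change of −0.04 (−0.48 to 0.40), and the C1 inhibitor gene Serping1 had one of −0.13 (−0.63 to 0.36). Vcam1, a leukocyte adhesion molecule, was bounded within 1.37-fold.

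Interleukin-6 (Il6, chromosome 5, 30218112 to 30224979) was at 0 to 3.96 CPM in Sham, at 14.6, 68.7, 54.7 and 112 CPM in Control-AMI and at 41.5, 50, 36.9 and 120 CPM in EMPA–Pre-AMI. In both AMI groups all libraries lay above Sham and replicate 4 was the highest. The log2 fold change of Il6 was 4.53 in Control-AMI against Sham (FDR = 0.00691) and −0.01 with EMPA against Control-AMI, but the latter interval, −1.30 to 1.29, still held changes of up to 2.46-fold. Pentraxin 3 (Ptx3, chromosome 3, 66127331 to 66133226), an acute phase protein of stromal cells, was at 49.1, 184, 81.4 and 330 CPM in Control-AMI and 79.4, 73.7, 90.1 and 576 CPM in EMPA–Pre-AMI, against 2.17 to 6.76 CPM in Sham. The log2 fold change of Ptx3 with EMPA was 0.35 (−1.44 to 2.13) with all libraries, −0.99 without EMPA–Pre-AMI replicate 4 and −0.37 (−1.24 to 0.50) without both libraries that stood apart. Ccl2, the monocyte chemoattractant, was at 165 and 151 CPM in those 2 libraries and at 5.79 to 33.7 CPM in the other 6, and its interval of −2.55 to 2.65 was the widest of the well-measured members. Without them the interval of Ccl2 was −1.16 to 2.25. Lcn2, lipocalin 2, was at 1.15 to 4.94 CPM in Control-AMI and 3.16 to 15.1 CPM in EMPA–Pre-AMI, a log2 fold change of 1.54 (0.20 to 2.93, unadjusted p = 0.0268 from edgeR). Its lowest value lay within the 1.06 to 1.54 CPM that 3 counts stand for, the highest in each group lay well above it, and Lcn2 was not tested in the fit without both libraries that stood apart. Sham values were at most 0.751 CPM, and Lcn2 passed the filter on low counts mainly through EMPA–Pre-AMI libraries. Icam1, another adhesion molecule, had an interval of −0.53 to 1.24 around 0.35, and without both libraries that stood apart its log2 fold change was −0.04.

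Signalling genes downstream of these cytokines were better bounded. The list of NF-kappaB and JAK-STAT components and feedback inhibitors had 22 of 26 well-measured members within 2-fold and 5 within 1.5-fold, with a median log2 fold change of 0.02. Against Sham, 13 of 28 tested members were higher and 1 lower in Control-AMI at an FDR under 0.05, compared with 2.99% and 1.17% of all genes. Il6st, which encodes the shared receptor chain gp130, was bounded within 1.28-fold with EMPA. Socs2, a feedback inhibitor of cytokine receptors, was higher in Control-AMI than in Sham by a log2 fold change of 1.38 and had one of 0.05 (−0.29 to 0.40) with EMPA. For Stat3 these values were 1.19 and −0.11 (−0.62 to 0.39). Socs3, a rapid feedback target of interleukin-6 signalling, spanned 131 to 597 CPM in Control-AMI and 67.4 to 388 CPM in EMPA–Pre-AMI, and its interval of −1.63 to 0.83 was the widest of the list.

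Immediate early genes, transcription factors and phosphatases that respond within minutes, were the least bounded list. All 33 were tested and 30 were well measured, and of these 13 were bounded within 2-fold and 2 within 1.5-fold. Egr1, an early growth response factor, was at 1031 to 3246 CPM in Control-AMI and 1332 to 5130 CPM in EMPA–Pre-AMI and had an interval of −0.99 to 1.5. Fos spanned 128 to 1240 CPM and 198 to 670 CPM. Nr4a1, an orphan nuclear receptor, was at 34.5, 27.4, 25.2 and 249 CPM in Control-AMI and 362, 11.1, 44.8 and 190 CPM in EMPA–Pre-AMI, and its interval of −2.06 to 3.77 left up to 13.7-fold open. Without both libraries that stood apart the log2 fold change of Nr4a1 was 2.26 (−1.23 to 5.78), a farther bound of 54.9-fold. Klf9, a target of glucocorticoid hormones, was at 2009 ± 451 and 1997 ± 465 CPM and had the smallest farther bound, with a log2 fold change of −0.01 (−0.44 to 0.43). Klf9 was also higher in Control-AMI than in Sham by 1.09 on the log2 scale. The count of bounded immediate early genes fell to 7 without EMPA–Pre-AMI replicate 1 and to 8 without both libraries that stood apart.

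The list of metallothioneins, chaperones and stress genes held 34 tested genes, of which 11 were higher in Control-AMI than in Sham at an FDR under 0.05 and 0 lower, against 2.99% and 1.17% of all genes. Mt1, a zinc-binding metallothionein (chromosome 8, 94905710 to 94906955), was at 192 to 614 CPM in Sham, at 4253, 8347, 5919 and 8292 CPM in Control-AMI and at 4082, 6224, 4224 and 8664 CPM in EMPA–Pre-AMI. Its neighbour Mt2 (94898819 to 94900207) was at 68.5 to 324 CPM, at 4092, 8218, 5436 and 9231 CPM and at 4245, 5981, 4607 and 11021 CPM in the same order. All 8 AMI values of both genes lay far above Sham, and the AMI groups overlapped. The log2 fold changes in Control-AMI against Sham were 4.33 for Mt1 (FDR = 5.75e-05) and 5.11 for Mt2 (FDR = 0.000147). With EMPA against Control-AMI they were −0.21 (−0.97 to 0.56) and −0.06 (−0.98 to 0.86), so that each interval lay just inside 2-fold. This did not hold in the fit without both libraries that stood apart. There the intervals were −1.27 to 0.57 for Mt1 and −1.28 to 0.77 for Mt2. Cdkn1a, the cell cycle inhibitor p21, and Ddit4, an inhibitor of mTOR signalling, were higher in Control-AMI than in Sham by 1.75 (FDR = 0.0106) and by 1.82 (FDR = 0.00269) on the log2 scale. With EMPA their log2 fold changes were −0.20 (−0.92 to 0.51) and −0.08 (−0.70 to 0.53). For Cdkn1a the interval was −1.06 to 0.92 without both libraries that stood apart.

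Across this list, 26 of 31 well-measured members were bounded within 2-fold and 5 within 1.5-fold. The count within 2-fold was 21 without both libraries that stood apart. Srxn1, the sulfiredoxin induced by oxidants, was the member of smallest p with EMPA. It was at 138, 145, 117 and 238 CPM in Control-AMI and 93.9, 74.2, 120 and 135 CPM in EMPA–Pre-AMI, with an interval of −1.09 to −0.09 around −0.59 (unadjusted p = 0.0236 from edgeR). The groups of Srxn1 overlapped through the 117 CPM of Control-AMI replicate 3, and the other Control-AMI values lay above all EMPA–Pre-AMI values. Hsp90ab1, a cytosolic chaperone, was at 8041 to 8346 CPM in 3 Control-AMI libraries and 4092 CPM in replicate 4. In EMPA–Pre-AMI it was at 4621, 8650, 8128 and 4385 CPM, and its interval was −0.77 to 0.46. Hspa1a, the inducible HSP70, had the largest value, 359 CPM, in EMPA–Pre-AMI replicate 2 and an interval of −1.08 to 1.53.

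**Figure D4:**
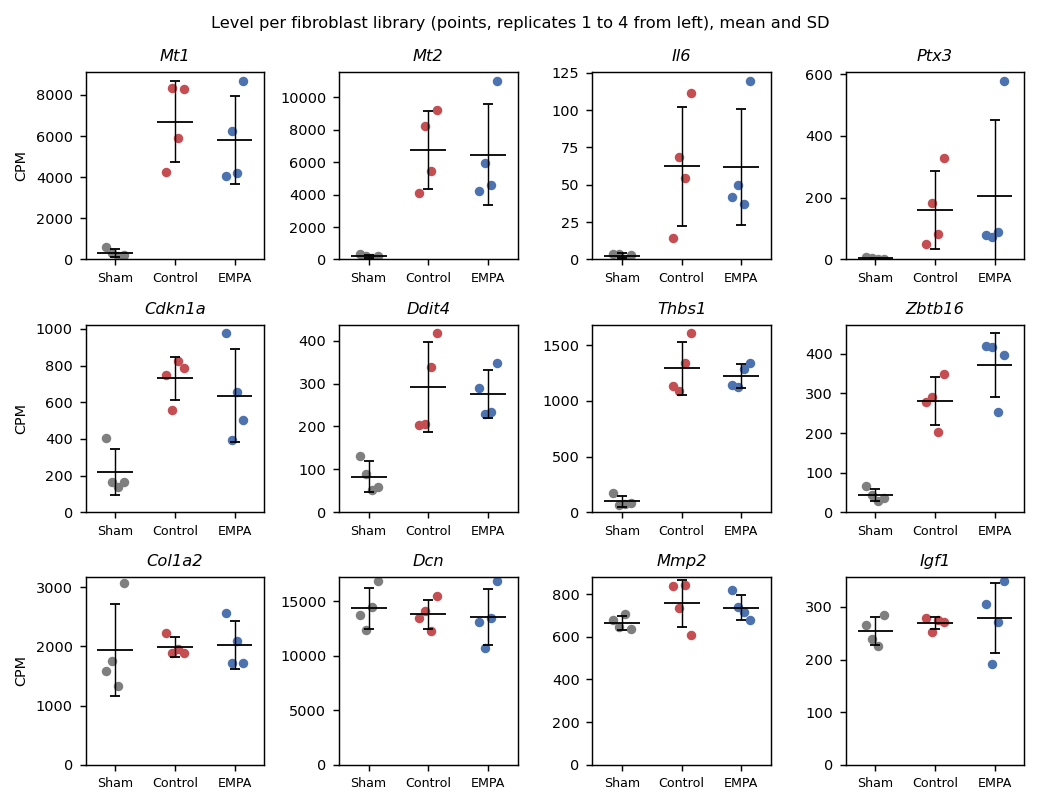
CPM per fibroblast library for 6 injury-response genes in both AMI groups (Mt1, Mt2, Il6, Ptx3, Cdkn1a, Ddit4), the strongly induced Thbs1 and Zbtb16, and 4 matrix and growth factor genes, with the mean and SD of 4 libraries; axes start at 0. Control-AMI and EMPA–Pre-AMI overlap in every panel, and Il6 and Ptx3 have their highest value in replicate 4 of each AMI group.

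Genes of hypoxia and glycolysis were bounded within 2-fold in 13 of 14 well-measured members and within 1.5-fold in 6. Hk2, the inducible hexokinase, was higher in Control-AMI than in Sham by 1.89 on the log2 scale (FDR = 0.00472) and was at 216, 250, 320 and 474 CPM in Control-AMI and 214, 179, 213 and 480 CPM in EMPA–Pre-AMI. Replicate 4 was again the highest in each group, and the log2 fold change with EMPA was −0.21 (−0.90 to 0.47). Aldoa, an aldolase, had an interval of −0.54 to 0.23, the constitutive hexokinase Hk1 of −0.82 to 0.07, and the vasodilator peptide gene Adm, the widest, of −0.88 to 0.75.

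Genes of the TGF-beta pathway and of fibroblast activation were bounded within 2-fold in 26 of 31 well-measured members and within 1.5-fold in 16. Actb, cytoplasmic actin, was at 17011 ± 2020 CPM in Control-AMI and 16221 ± 3193 CPM in EMPA–Pre-AMI, with a log2 fold change of −0.07 (−0.46 to 0.32), and was higher in Control-AMI than in Sham by 0.97. Vimentin (Vim) had an interval of −0.54 to 0.24. Inhba, which encodes the activin A subunit, was at 66.3, 62.7, 79.0 and 70.8 CPM in Control-AMI and 54, 60.5, 58.5 and 48.1 CPM in EMPA–Pre-AMI. All Control-AMI values of Inhba lay above all EMPA–Pre-AMI values, but the interval of −0.76 to 0.09 held 0. Only Inhba of the 36 tested members had no overlap, against 1.78% of all genes tested. Acta2, smooth muscle actin, had an interval of −1.11 to 1.04, and its highest values, 60.5 and 45.2 CPM, were those of replicate 4. Ccn2, a matricellular target of TGF-beta and YAP, was the widest. It was at 73.2, 116, 102 and 572 CPM and at 546, 52.6, 271 and 173 CPM, and its interval ran from −1.76 to 2.31. Without both libraries that stood apart the log2 fold change of Ccn2 was 1.58 (−0.55 to 3.71), and its farther bound was 13.1-fold in place of 4.95-fold. In Control-AMI replicate 4, where Ccn2 and Acta2 were high, mural markers summed to 6076 CPM. Rgs5 alone was at 3400 CPM there. Myh11 was the only mural marker not highest of its group in that library, and at 16.05 CPM it was the lowest. The part of mural cells in these values was not tested. In such sorted pools, fewer cells of a type and less RNA per cell cannot be told apart.

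Growth factors and the IGF system held 16 well-measured genes, 12 bounded within 2-fold and 5 within 1.5-fold. Igf1, insulin-like growth factor 1 (chromosome 10, 87693642 to 87772904), was at 280, 253, 274 and 270 CPM in Control-AMI and 306, 192, 271 and 349 CPM in EMPA–Pre-AMI. The EMPA–Pre-AMI values lay on both sides of the narrow Control-AMI range, and the log2 fold change was 0.05 (−0.32 to 0.42). The binding proteins Igfbp4, Igfbp5 and Igfbp7 had intervals of −0.55 to 0.17, −0.09 to 0.62 and −0.65 to 0.24. Vegfb, a vascular growth factor tied to fatty acid uptake, was at 26.8, 16.1, 30.0 and 14.0 CPM and at 19.2, 17.9, 22.7 and 10.7 CPM, and had an interval of −0.97 to 0.36. Pdgfa had a log2 fold change of −0.11 (−1.34 to 1.12), which was 0.96 (0.08 to 1.84) without both libraries that stood apart. Control-AMI replicate 4 was at 66.7 CPM against 8.24 to 18.8 CPM in the others of its group, and without it alone the log2 fold change was 0.92.

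Carriers of sodium and glucose included 6 well-measured genes, of which 5 were bounded within 2-fold. Atp1b1, a regulatory subunit of the sodium pump, had an interval of −0.53 to 1.43, which was 0.04 to 1.39 without both libraries that stood apart. The respiratory chain and ATP synthase genes encoded in the nucleus were bounded within 2-fold in 72 of 73 well-measured members and within 1.5-fold in 38, with a median log2 fold change of −0.14 and a range of −0.38 to 0.29. Atp5mg and Atp5me, both subunits of ATP synthase, had intervals of −0.60 to 0.07 and −0.62 to 0.27. Ndufs4 of complex I had the smallest p, with 52.6 ± 8.13 and 40.5 ± 3.60 CPM and an interval of −0.78 to 0.03, and Ndufa1, the member that was not bounded, had −1.24 to 0.66.

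**Figure D5:**
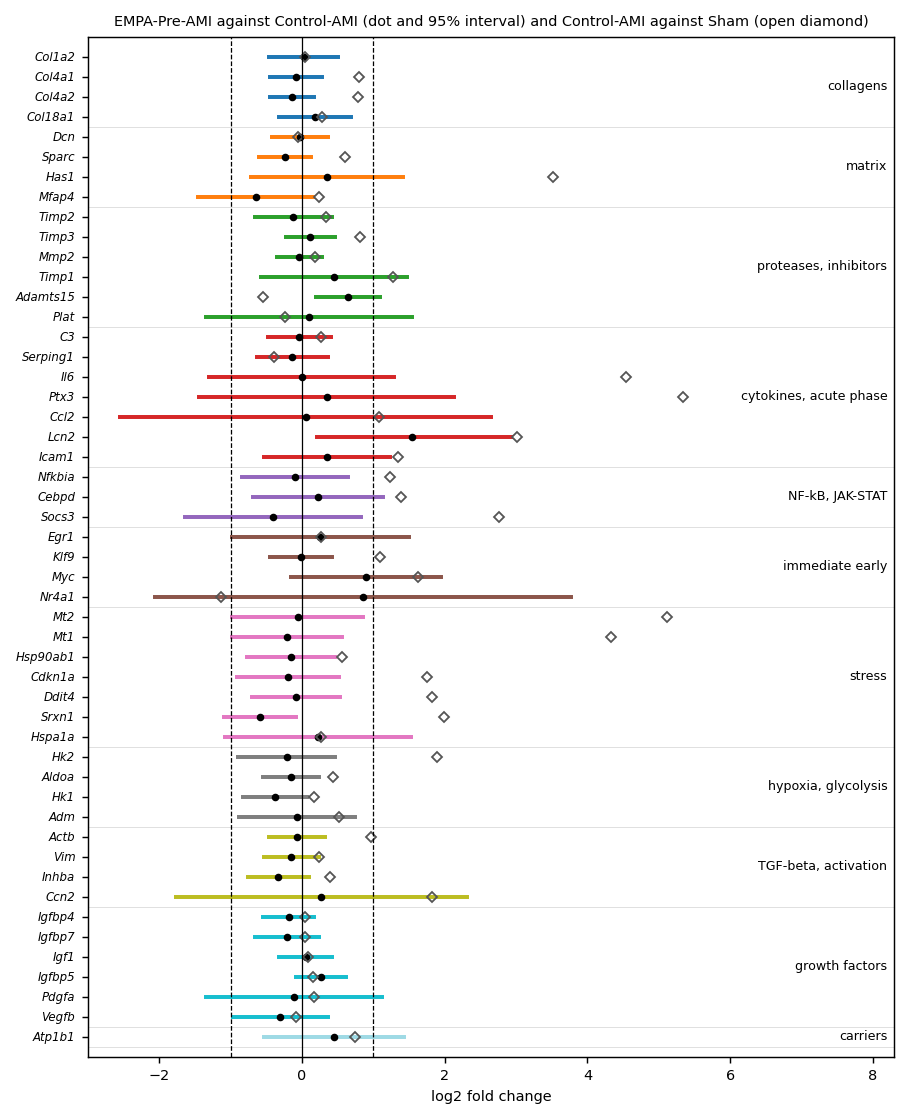
Log2 fold changes of named genes by list. Dots and bars give EMPA–Pre-AMI against Control-AMI with its 95% interval, open diamonds give Control-AMI against Sham, and dashed lines mark 2-fold. Nearly all bars include 0 (the bars of Adamts15, Lcn2 and Srxn1 do not), and for Mt1, Mt2 and Ptx3 the diamond lies beyond the bar, at 4.33, 5.11 and 5.34.

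The injury response gives the scale for these bounds. At an FDR under 0.05, 320 genes (2.99%) were higher and 125 (1.17%) lower in Control-AMI than in Sham, and 390 (3.65%) and 156 (1.46%) in EMPA–Pre-AMI than in Sham. These comparisons share the Sham libraries, and the first also shares the Control-AMI libraries with the EMPA comparison, so that their values are given side by side only. The first total of 445 fell to between 228 and 267 when Sham replicate 2, 3 or 4 or Control-AMI replicate 1, 2 or 3 was left out. The second total of 546 fell to between 264 and 313 without Sham replicate 2, 3 or 4 or EMPA–Pre-AMI replicate 2 or 4. Sham replicate 2 was also the library with 721 CPM of myeloid markers. Sham replicates 2, 3 and 4 had low sample-sheet numbers and most AMI libraries high ones, so both comparisons with Sham are partly confounded with this range. With a term for the range of sample-sheet numbers the totals were 819 and 985. Among the higher genes of the first comparison, 302 were well measured, with a median log2 fold change of 1.14 against Sham. Their median with EMPA against Control-AMI was −0.02, with a range of −0.62 to 0.49, and 270 were bounded within 2-fold. Among the lower genes, 50 were well measured, with medians of −0.99 against Sham and 0.12 with EMPA, and 46 were bounded within 2-fold.

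Thbs1, thrombospondin 1 (chromosome 2, 117941974 to 117957616), had the smallest FDR. It was at 173, 65.1, 75.5 and 83.3 CPM in Sham, at 1138, 1089, 1341 and 1609 CPM in Control-AMI and at 1139, 1127, 1284 and 1345 CPM in EMPA–Pre-AMI. Its log2 fold change was 3.70 in Control-AMI against Sham (FDR = 3.10e-06), 3.62 in EMPA–Pre-AMI against Sham and −0.08 (−0.61 to 0.45) with EMPA against Control-AMI. Zbtb16, a transcription factor induced by glucocorticoids (chromosome 9, 48563141 to 48748664), was at 29.1 to 65.3 CPM in Sham, 279, 292, 204 and 350 CPM in Control-AMI and 421, 418, 252 and 398 CPM in EMPA–Pre-AMI. With EMPA its log2 fold change of 0.41 had an interval of −0.10 to 0.91. Lrrc8a, a subunit of the volume-regulated anion channel, had log2 fold changes of 1.68 and −0.01 (−0.37 to 0.34), and the tubulin gene Tuba1c of 2.04 and −0.32 (−0.75 to 0.10). Pakap, a symbol that 3 gene IDs of the table carry, so that reads may be split among them, had 2.21 and −0.08 (−0.55 to 0.39) for the most abundant ID.

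The genes lower after AMI with the smallest FDR were Klf2, Adam19, Eln, Hic1 and Cdon. Klf2, a transcription factor that shear stress induces in endothelium, was at 451 ± 111 CPM in Sham, 156 ± 41.7 CPM after AMI with vehicle and 141 ± 34.4 CPM after AMI with EMPA, with log2 fold changes of −1.53 against Sham and −0.14 (−0.64 to 0.36) with EMPA. Adam19, a membrane-bound metalloprotease, had −1.46 and −0.01 (−0.51 to 0.50), and elastin (Eln) −1.11 and −0.16 (−0.54 to 0.23). For Hic1, a transcriptional repressor found in mesenchymal progenitors, the values were −1.55 and 0.21 (−0.36 to 0.78). Cdon, a hedgehog co-receptor, was at 31.6 ± 7.26 CPM in Control-AMI and 22.8 ± 5.97 CPM in EMPA–Pre-AMI, with −1.15 and −0.46 (−0.98 to 0.05).

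Whether the effect of EMPA differed between fibroblasts and endothelial cells (ECs) was tested in 1 fit of 25 fibroblast and EC libraries, in which ECs had 4 Control-AMI and 5 EMPA–Pre-AMI libraries. Of 11615 genes, 237 (2.04%) had a higher and 6 (0.0517%) a lower log2 fold change in fibroblasts than in ECs at an FDR under 0.05. The total of 243 was 151 without EC Control-AMI replicate 1. Over these 243 genes the median log2 fold change with EMPA was 0.00 in fibroblasts and −2.82 in ECs. The lists with most such genes were collagens, 12 of 17, and matrix glycoproteins, 14 of 45, followed by matrix proteases and their inhibitors with 7 of 22. Of the NF-kappaB, immediate early, hypoxia, carrier and respiratory lists 0 genes differed.

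Lrp1, Vcan and Ptprd had the smallest FDR among the higher genes. Lrp1, an endocytic receptor, was at 271 ± 161 CPM in Control-AMI ECs (n = 4) and 32 ± 8.77 CPM in EMPA–Pre-AMI ECs (n = 5), and at 1253 ± 184 and 1367 ± 316 CPM in fibroblasts. The difference of its log2 fold changes was 3.21 (2.31 to 4.11, FDR = 0.000981). For Vcan the difference was 2.78 (1.98 to 3.60) and for Ptprd 3.04 (2.09 to 4.07). In those ECs the 14 fibroblast markers summed to 5462 to 16544 CPM in Control-AMI and 2275 to 3306 CPM in EMPA–Pre-AMI, against 35936 to 45131 CPM in the AMI fibroblasts of the same fit. In Sham ECs the sum was 2580 to 4277 CPM. The part of fibroblast RNA in the EC values was not tested. On the lower side, B4galt4, Tspan7 and Mageh1 had differences of −1.78 (−2.67 to −0.94), −1.28 (−1.89 to −0.68) and −1.20 (−1.78 to −0.63). In the same order their log2 fold changes with EMPA were −0.98, −0.50 and −0.72 in fibroblasts and 0.79, 0.78 and 0.49 in ECs. B4galt4 was rare in fibroblasts, at 5.02 CPM in Control-AMI and 2.51 CPM in EMPA–Pre-AMI, against 35.4 and 61.2 CPM in ECs.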

How the data were processed

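The authors trimmed the 3′ reads with cutadapt 2.8, quantified them by Salmon against the Ensembl 106 annotation of GRCm39, and deposited estimated counts for 35682 genes, not normalized. These expected counts were rounded here. Gene symbols and coordinates were looked up in GENCODE mouse release 39 of this build (35407 IDs had a symbol). The 12 fibroblast libraries were fitted together by group with edgeR 4.0.16 in R 4.3.3: filterByExpr, TMM factors, and robust quasi-likelihood F tests. FDR values follow Benjamini and Hochberg. The 95% interval of a gene holds the log2 fold changes that its test did not reject at 0.05. CPM use TMM-scaled library sizes. limma 3.58.1 and DESeq2 1.42.0 were alternatives. Intervals cover the spread between libraries, and whether reads carried molecular identifiers is not given in the sources used here.

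Named genes were, per list, the 2 most abundant, the one of smallest p and the one with the widest interval, then 5 genes of smallest p in each direction without overlap, 5 of smallest FDR in each direction between Control-AMI and Sham at 20 CPM or more, 3 in each direction of the difference from ECs, carriers, markers and genes that the study discusses. Il6, Ptx3, Mt1, Mt2, Cdkn1a and Ddit4 were named as early injury genes already known from this series. Other list members were named for their bounds after their values were seen. The members, lists and tests were chosen with earlier results of these data known. Replicate numbers were checked for pairing: deviations of same-numbered Control-AMI and EMPA–Pre-AMI libraries from their group means correlated at 0.11, 0.33, 0.19 and 0.57 over 6389 genes, so a fit with the replicate number as a block was also made. Library pairs of a group differed by 4.60 to 28.7 times counting error on average, so none was taken as a duplicate. The steps were tested on simulated data. The values of some genes are not reported here. Tables of other populations were used only for the EC comparison.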

Additional observations from a re-analysis of the deposited data

Results flagged for a closer look

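Across 207 sets of 4 libraries examined, 23 had a library far from the other 3, measured as its gap to the nearest divided by the whole range, where chance gives about 1 in 20. Some genes of these sets were named for a wide interval in these data, and the sets share libraries. The count of 23 therefore cannot be judged against that rate. Control-AMI replicate 4 was such a library for Ccn2 (572 CPM against 73.2 to 116), Nr4a1 (249 against 25.2 to 34.5), Ccl2 (165 against 7.27 to 25.9) and Hsp90ab1 (4092 against 8041 to 8346). The same library stood far from its group for summed mural markers (6076 CPM against 932 to 1515) and for Schwann and neural markers (163 against 55.6 to 60.4). EMPA–Pre-AMI replicate 4 was far above its group for Ptx3 (576 CPM against 73.7 to 90.1), Il6 (120 against 36.9 to 50), Hk2 (480 against 179 to 214) and total counts (2119839 against 1946056 to 1969461).

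The other libraries flagged were scattered. EMPA–Pre-AMI replicate 3 was far from its group for B4galt4 (3.69 CPM), Ints12 (4.74), Tspan7 (19) and Zbtb16 (252), and EMPA–Pre-AMI replicate 2 for Igfbp7 (508) and Rcor2 (0.526, with the others at 0). Control-AMI replicate 1 was far for red cell markers (743 CPM against 138 to 163) and Gm14584 (4.22, with the others at 0). In Sham, replicate 1 was far for Cdkn1a (404) and Thbs1 (173), replicate 3 for Adam19 (370), and replicate 2 for myeloid (721) and lymphoid (11.9) markers.

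The log2 fold change with EMPA differed between fibroblast and EC libraries, by the test of the difference itself, for Lrp1 (log2 difference 3.21), Vcan (2.78) and Ptprd (3.04), and in the other direction for B4galt4 (−1.78), Tspan7 (−1.28) and Mageh1 (−1.20). Without any library left out these 6 had an FDR under 0.05, but Tspan7 was no longer under 0.05 (difference −1.24) when all 38 libraries entered the fit. Summed fibroblast markers were at 5462 to 16544 CPM in Control-AMI ECs, 2275 to 3306 CPM in EMPA–Pre-AMI ECs and 2580 to 4277 CPM in Sham ECs. The part of fibroblast RNA in the EC values was not tested.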

How the results depend on the processing

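The count of genes with an FDR under 0.05 between EMPA–Pre-AMI and Control-AMI was 0 in every fit tried. Genes with an unadjusted p under 0.05, 170 as reported, were 330 with no filter on low counts, 325 with a term for the run of library numbers, 387 with a term for the range of sample-sheet numbers, 285 without both libraries that stood apart, and 112 to 393 with each library left out in turn. Well-measured genes bounded within 2-fold, 5769 as reported, were 3401 (94.6%) at a mean of at least 50 CPM and 5395 to 5799 with 1 library left out. Those bounded within 1.5-fold, 2444 as reported, were 592 with 99% intervals and 1622 to 2637 with 1 library left out, with the lowest counts without Control-AMI replicate 3 (1622) and without EMPA–Pre-AMI replicate 3 (1623). The median farther bound stayed between 1.54- and 1.64-fold with 1 library left out. Genes between Control-AMI and Sham were 819 with the sample-sheet term, 772 with DESeq2 and 228 to 596 with 1 library left out. Between EMPA–Pre-AMI and Sham they were 985, 858 and 264 to 811. The cause of these shifts was not tested. The difference between fibroblasts and ECs gave 151 to 330 genes with 1 library left out. With the replicate block, 235 genes had an unadjusted p under 0.05 and 0 an FDR under 0.05, 5938 genes were bounded within 2-fold and 3056 within 1.5-fold, 282 genes differed between fibroblasts and ECs, and no call or count changed by more than 1.5 times. Fits without both libraries that stood apart, thinned to 1 total, with an endothelial term or with the newer quasi-likelihood method were chosen after seeing the data. At a 99% interval, 12 of 26 NF-kappaB and JAK-STAT genes, 5 of 30 immediate early genes and 12 of 31 stress genes stayed within 2-fold. Il6 in Control-AMI against Sham lost its FDR under 0.05 with limma-voom, and Ptx3 without Sham replicate 2, 3 or 4. The median farther bound was 2.13-fold from 5 to 20 CPM and 1.44-fold above 200 CPM, and the part of depth in this was not tested.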
